A study of Oryza sativa with 6 samples.

Results

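The transcripts described here were high in rice seedlings (Oryza sativa) carrying an RNA interference construct against OsUBA and similarly low in both other groups of the study. RNA interference (RNAi) lowers a transcript through matching double-stranded RNA. Probe sets, the groups of short probes that an Affymetrix array uses for each transcript, were selected on their expression values by 3 conditions. In a member, the lower RNAi array exceeded the highest of the other 4 arrays by at least 1 on the log2 scale, a difference called the gap here. The overexpression and wild-type means differed by less than 0.5, and the RNAi mean was at least 8. Probe sets of genes named JAZ or PP2C were left out. The rule found 47 members among 57194 non-control probe sets, or 0.0822%. Because it used the expression values of all 6 arrays, the differences of the members between groups are a description and were not tested.

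The study holds 6 one-colour arrays of untreated seedlings at the 4-leaf stage, grown at 28 °C. They fall into 3 groups of 2 biological replicates: OsUBA RNAi plants, OsUBA-overexpressing plants, and the wild type, cultivar Nipponbare. The labels give neither the promoters of the constructs nor the number of transgenic lines, and they name no transformed control without an OsUBA construct, so lowering OsUBA and transformation itself cannot be told apart in comparisons with wild type. The level of OsUBA was not analysed here, since no name in the annotation used matched it.

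Values are log2 expression values as deposited by the authors, given as RNAi replicates 1 and 2, then overexpression, then wild type. The median of an array was 5.67 to 5.92, and between 34231 and 36277 probe sets on each reached log2 5, the floor used for weak signals. Arrays of the same group correlated at r = 0.905 to 0.906 across probe sets, and arrays of different groups at 0.871 to 0.907. The leaf genes RBCS (small subunit of Rubisco), CAB2R (a light-harvesting protein) and the Rubisco activase gene lay between 14.7 and 15.97 on every array, whereas a further small-subunit probe set, RBCS1, lay between 3.97 and 5.78. Of 9 genes matched by the seed storage list, GLB and GLUA-2 lay between 10.3 and 11.7 on all arrays. GLUB-5 lay between 6.81 and 7.81, GLUB-4, PROLM25, GLUA-1 and GLUA-3 between 0.47 and 6.38, and NSHB1 and NSHB2, which are haemoglobin genes, between 3.37 and 8.07. No root marker was matched. In RNA from whole seedlings, fewer cells of a type and less RNA per cell cannot be told apart. The p-values below rest on a spread pooled over the 6 arrays and drawn towards that of probe sets of like brightness. With 2 arrays a group, they measure no spread beyond these arrays.

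Of the 47 members, 23 map to a single gene, and these are 22 different genes, all protein-coding. The other 24 have no listed gene in the array annotation, 51.1% of the members against 24.3% of the 16889 probe sets with an RNAi mean of 8 or more. Over all 57194 non-control probe sets the share was 60.6%. A name other than a locus number was available for 2 member genes, EIL1B (LOC4332697) and YSL9 (LOC4336545). EIL1B belongs to the EIN3-like transcription factors, which act in the nucleus at the end of the ethylene signalling chain. Ethylene is bound by receptors in the endoplasmic reticulum membrane, and the signal passes through EIN2 to these factors. YSL9 belongs to the yellow stripe-like transporters, which carry metals bound to chelators such as nicotianamine across membranes. The remaining member genes carry only a locus number and are given no function here.

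Over the 47 members the RNAi mean exceeded the wild-type mean by a median of 1.87 (range 1.13 to 6.94) and the overexpression mean by a median of 1.96 (range 1.21 to 6.46). The highest value of both ranges was taken against means under log2 5. The same medians over all 40466 probe sets kept for testing were 0.00 and 0.09. These 2 comparisons share the RNAi arrays, and the size of both differences was set in part by the rule. RNAi stood above wild type by under 1.5 in 9 members, by 1.5 to 2 in 18, by 2 to 3 in 15 and by 3 or more in 5. Expressed as ratios, the median was 3.66-fold over wild type and 3.90-fold over overexpression. The gap itself had a median of 1.30 and reached 1.5 in 11 members and 2 in 5. Members with a listed gene and those without had median gaps of 1.30 and 1.28.

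**Figure D1:**
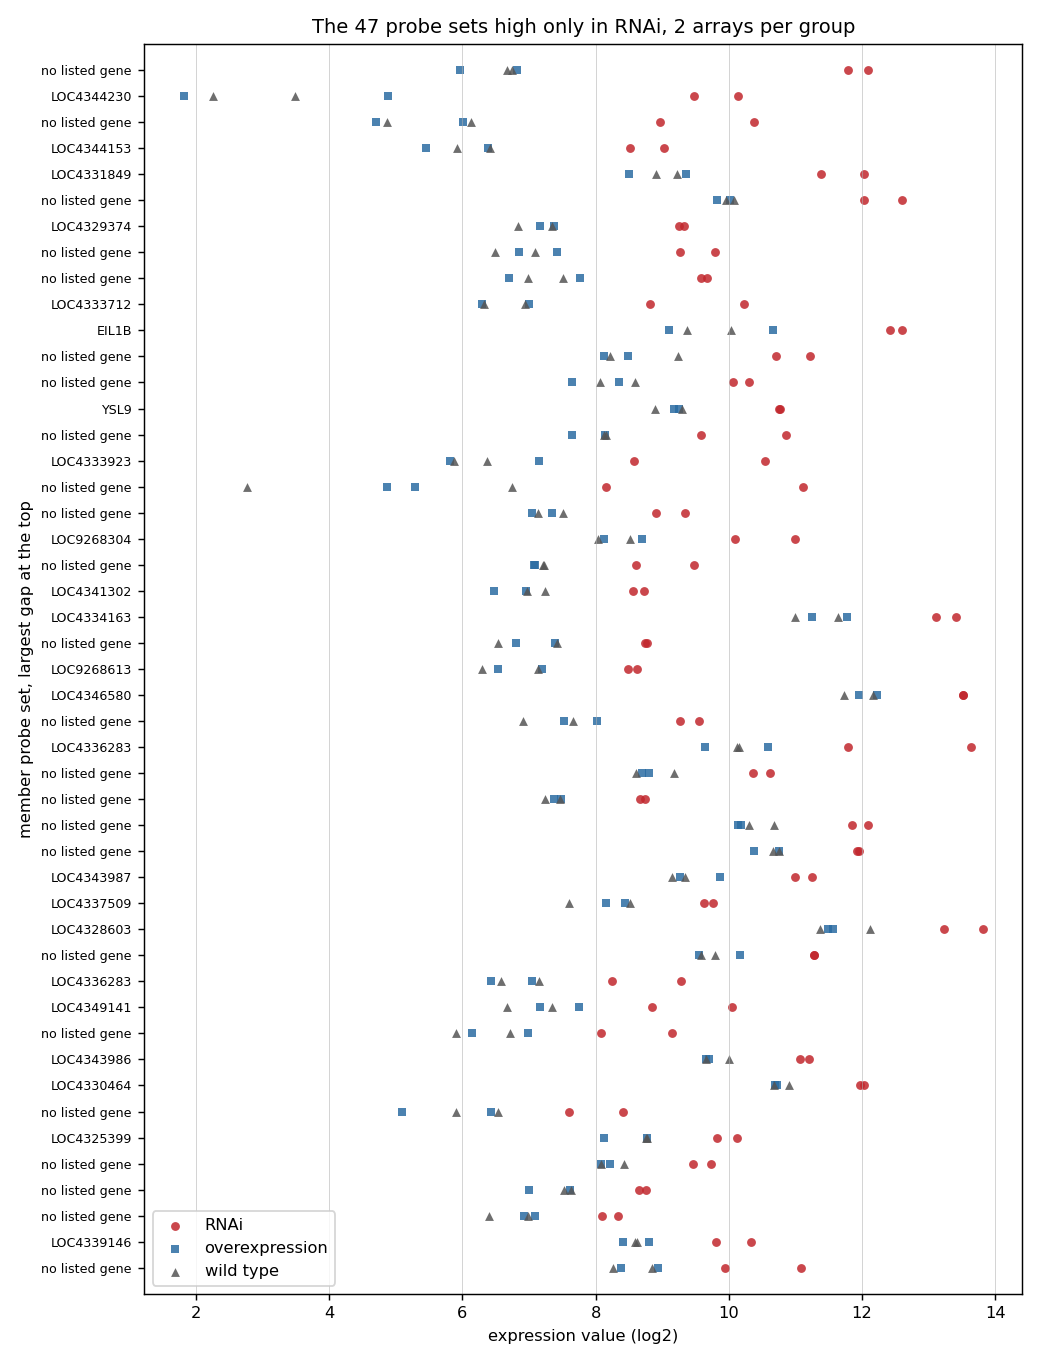
Expression value (log2, x axis) of each of the 47 member probe sets (rows, largest gap at the top) on the 6 arrays, with RNAi as circles, overexpression as squares and wild type as triangles. In every row both circles lie right of all other points by at least 1, and the distance exceeds 2 in 5 rows.

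The overexpression mean lay above the wild-type mean in 22 members and below it in 25, with a median difference of -0.01 and a range of -0.46 to 0.49. The array nearest to the RNAi arrays was an overexpression array in 24 members (replicate 1 in 9, replicate 2 in 15) and a wild-type array in 23 (replicate 1 in 11, replicate 2 in 12). The spread between replicates had a median SD of 0.21 in RNAi, 0.39 in overexpression and 0.36 in wild type over the members. The rule was set on the lower RNAi array, and RNAi was the brightest group in every member. These SDs therefore do not compare the spread of the groups in general. RNAi replicate 2 was the higher one in 31 members and replicate 1 in 16. The RNAi replicates lay within 0.2 of each other in 15 members and differed by 1 or more in 10, of which replicate 2 was higher in 7.

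All 47 members passed the filter on low values, which asked for log2 5 on at least 2 arrays. In 44 of them all 4 overexpression and wild-type arrays also reached 5, so most members were measured above the floor in every group. In limma, at a Benjamini-Hochberg adjusted p under 0.05 among the kept probe sets, 23 members were called higher in RNAi than in wild type, where 0.19% of all kept probe sets were called higher. Against overexpression 38 were called higher, where 0.954% of all were. These are the contrasts that chose the members, so the counts describe the overlap of the rule and the fit only. In overexpression against wild type 0 members were called, where limma called 0.346% of all kept probe sets higher and 0.00988% lower, and 0 members had an unadjusted p under 0.05. The rule had limited that difference too. Without the intensity trend in limma, 0 members were called in either RNAi comparison.

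**Figure D2:**
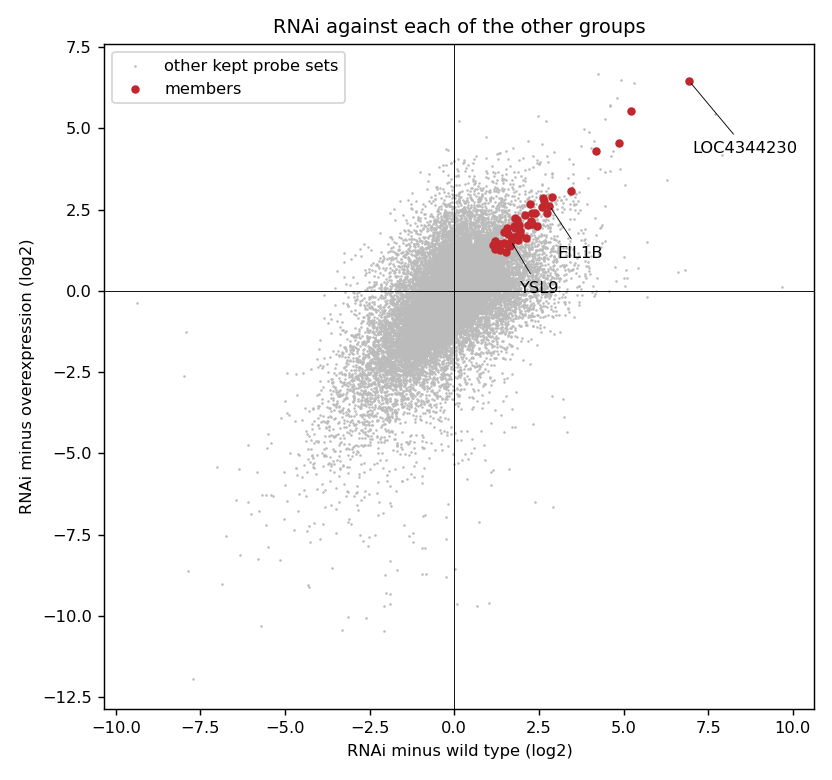
Difference of group means (log2) for RNAi minus wild type (x axis) and RNAi minus overexpression (y axis), for the 47 members (red) and all other kept probe sets (grey). The axes share the RNAi arrays, and the members lie near the diagonal by construction, with 5 members at 3 or more on the x axis.

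The largest differences among genes belonged to LOC4344230. Its member probe set read 10.14 and 9.48 in RNAi, 4.88 and 1.83 in overexpression, and 2.25 and 3.49 in wild type. Both RNAi arrays lay well above the floor and all 4 others below it, so RNAi was at least 28.0-fold higher than either group, counted from the floor of log2 5. A second probe set of the gene read 10.53 and 10.29 in RNAi, 3.80 and 4.23 in overexpression, and 5.40 and 4.77 in wild type. RNAi was again the highest group, 40.0-fold above wild type. The probe set was no member because its overexpression mean lay 1.07 below wild type, whereas in the member probe set overexpression lay above wild type. Another member with the same identifier stem has no listed gene and the largest gap of all members, 4.98. It read 12.09 and 11.80 in RNAi, 5.96 and 6.82 in overexpression, and 6.75 and 6.67 in wild type, or 37.6-fold above wild type and 46.8-fold above overexpression. Probe sets that share a stem can share source sequence and cannot be taken as independent measures of the difference. A stem can also hold probe sets of different genes, such as LOC4325399 and LOC4325754. Which gene the member without a listed gene reads was not tested.

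LOC4344231, the next gene in the order of the rice RefSeq annotation (assembly ASM3414082v1), went the other way. It read 9.58 and 9.32 in RNAi, 13.36 and 13.23 in overexpression, and 13.06 and 13.19 in wild type, with no overlap between RNAi and the rest. RNAi was lower than wild type by a log2 difference of -3.68 ± 0.17 (SE), which is 12.8-fold (limma, adjusted p = 0.000609), and lower than overexpression by -3.84 (limma, adjusted p = 0.000144). LOC4344231 is no member and was not used by the rule. Over 14 other settings its adjusted p against wild type lay between 0.00039 and 0.103 in limma, and it missed the threshold only without the intensity trend. On the other side, LOC4344229 had a log2 difference of 0.92 from wild type (limma, adjusted p = 0.493).

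**Figure D3:**
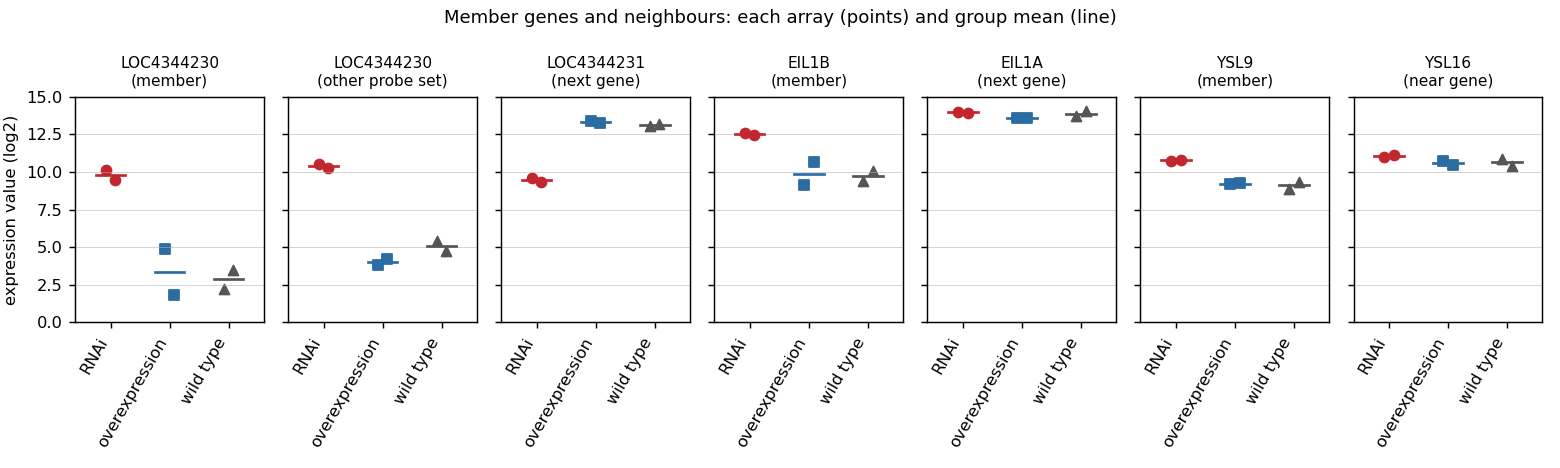
Expression value (log2, y axis) on each array (points) and the mean of 2 arrays (line) by group, for member genes and genes beside them. LOC4344230 is high and LOC4344231 low in RNAi, while EIL1A and YSL16, near EIL1B and YSL9, differ by 0.09 and 0.43 between RNAi and wild type.

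EIL1B read 12.61 and 12.42 in RNAi, 9.10 and 10.67 in overexpression, and 9.38 and 10.04 in wild type. RNAi was 6.996-fold above wild type and 6.18-fold above overexpression, and the RNAi arrays lay 1.75 or more above all others. The overexpression arrays differed from each other by more than the RNAi or wild-type pairs did. Without overexpression replicate 1 the ratio to that group was 3.59, and without replicate 2 it was 10.7.

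LOC4332695, directly before EIL1B in the annotation, read 6.93 and 7.77 in RNAi, 10.89 and 9.20 in overexpression, and 7.94 and 7.88 in wild type. It was lower in RNAi than in overexpression by -2.70 on the log2 scale (limma, adjusted p = 0.0341) and did not pass against wild type (-0.56, limma, adjusted p = 0.774). EIL1A (LOC107276358), directly after EIL1B, read 13.99 and 13.94 in RNAi, 13.59 and 13.59 in overexpression, and 13.71 and 14.03 in wild type. The RNAi and wild-type arrays of EIL1A overlapped, with a log2 difference of 0.09 (limma, adjusted p = 0.886). A second probe set of EIL1A had a difference of -0.07 (limma, adjusted p = 0.972). Near-identical genes can share probes, and this was not tested for the pair.

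The ethylene list held 9 measured genes: the receptors ERS1, ERS2, ETR2 and ETR3, the signal transducer EIN2, ACS2 and ACO1 of ethylene synthesis, EIL1A and EIL1B. The rule chose EIL1B on these contrasts, so it was left out of the counts. Of the other 8 genes, limma called 0 higher and 0 lower in RNAi than in wild type, with 0 higher and 1 lower at an unadjusted p under 0.05, beside 0.19% and 0.583% called over all kept probe sets. The median difference from wild type over all 9 was -0.10, beside 0.00 over all kept probe sets. ACO1, which makes ethylene from its precursor, read 4.90 and 6.41 in RNAi, 8.25 and 8.21 in overexpression, and 7.55 and 7.13 in wild type. It was lower in RNAi than in overexpression (log2 difference -2.57, limma, adjusted p = 0.0352) but did not pass against wild type (-1.69, limma, adjusted p = 0.265). Against overexpression limma called 0 of the 8 genes higher and 1 lower, ACO1, beside 0.954% and 3.31% of all kept probe sets. At an unadjusted p under 0.05 there were 2 higher and 2 lower. The 4 receptors and EIN2 differed from wild type by -0.32 to 0.57 and none passed.

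YSL9 read 10.76 and 10.77 in RNAi, 9.18 and 9.25 in overexpression, and 8.90 and 9.30 in wild type. RNAi was 3.17-fold above wild type and 2.92-fold above overexpression, and leaving out any array kept the ratios between 2.76 and 3.65 and between 2.85 and 3.002. All 3 pairs of replicates were close, and the RNAi arrays stood apart from the 4 others. The metal transport list was matched by symbol and so took in TOM20, named for mitochondrial protein import rather than for metals. With TOM20 counted, the list held 42 genes with YSL9. Of the other 41, limma called 0 higher and 0 lower in RNAi than in wild type, with 1 higher and 5 lower at an unadjusted p under 0.05, beside 0.19% and 0.583% called over all kept probe sets. Against overexpression limma called 0 of the 41 higher and 1 lower, ZIP5, beside 0.954% and 3.31% of all kept probe sets. At an unadjusted p under 0.05 there were 3 higher and 4 lower. ZIP5 averaged 6.61 in RNAi and 6.62 in wild type, against 9.05 in overexpression. The median difference from wild type over all 42 was 0.00, the same as over all kept probe sets.

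The other 11 measured YSL genes did not pass in either RNAi comparison. Against overexpression 0.954% of all kept probe sets were called higher and 3.31% lower. YSL16, a transporter gene 4 places after YSL9, read 11.01 and 11.13 in RNAi, 10.74 and 10.48 in overexpression, and 10.88 and 10.41 in wild type, a log2 difference of 0.43 from wild type (limma, adjusted p = 0.531). Hox22 (LOC4336542), a homeodomain transcription factor gene 3 places before YSL9, read 12.69 and 12.84 in RNAi, 11.53 and 11.90 in overexpression, and 11.36 and 11.71 in wild type. Its RNAi arrays lay above the 4 others by 0.80, short of the limit for members. Hox22 was 2.35-fold higher in RNAi than in wild type (limma, adjusted p = 0.0438), and over 14 other settings its adjusted p lay between 0.0297 and 0.315, with 3 settings passing.

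LOC4333923 and LOC4333712 came next in size among genes. LOC4333923 read 8.58 and 10.54 in RNAi, 7.16 and 5.81 in overexpression, and 6.38 and 5.87 in wild type, 10.9-fold above wild type and 8.43-fold above overexpression. Its RNAi replicates differed from each other by 1.96, and the ratio to wild type was 21.4 without RNAi replicate 1 and 5.51 without replicate 2. Its ratio to overexpression ranged from 4.28 to 16.6 when single RNAi or overexpression arrays were left out. A second probe set of LOC4333923 had the same order, at 8.88 and 10.68 in RNAi, 7.72 and 6.56 in overexpression, and 5.83 and 6.67 in wild type. Its overexpression mean lay 0.89 above wild type, so it was no member. Its identifier differs from that of the member only in the suffix, so it is no independent measure.

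LOC4333712 read 8.82 and 10.23 in RNAi, 6.29 and 7.01 in overexpression, and 6.32 and 6.95 in wild type, 7.40-fold above wild type and 7.35-fold above overexpression. RNAi replicate 2 was the higher one here as well, and the ratio to wild type was 12.1 without RNAi replicate 1 and 4.54 without replicate 2. Against overexpression the ratio was 11.96 and 4.51 without these arrays. The member with the largest gap among those with neither a listed gene nor a shared stem read 10.38 and 8.96 in RNAi, 4.71 and 6.02 in overexpression, and 6.13 and 4.86 in wild type. It was 18.0-fold above wild type and 19.8-fold above overexpression, with ratios of 11.04 to 29.5 and 12.1 to 32.3 when single arrays of the groups compared were left out.

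LOC4336283 was the only gene with a pair of member probe sets. The brighter one read 11.79 and 13.64 in RNAi, 9.65 and 10.59 in overexpression, and 10.15 and 10.12 in wild type. The dimmer one read 8.25 and 9.29 in RNAi, 6.43 and 7.04 in overexpression, and 7.15 and 6.58 in wild type. Both put RNAi replicate 2 above replicate 1, and they gave 5.96-fold and 3.74-fold over wild type and 6.05-fold and 4.10-fold over overexpression. For the brighter one the ratio to wild type was 11.3 without RNAi replicate 1 and 3.14 without replicate 2, and the ratio to overexpression 11.5 and 3.19.

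LOC4331849 and LOC4344153 had steadier values. LOC4331849 read 11.39 and 12.03 in RNAi, 8.51 and 9.36 in overexpression, and 9.22 and 8.91 in wild type, 6.25-fold above wild type and 6.84-fold above overexpression. LOC4344153 read 8.52 and 9.03 in RNAi, 6.38 and 5.45 in overexpression, and 5.91 and 6.41 in wild type, 6.12-fold above wild type and 7.27-fold above overexpression. Leaving out 1 array moved neither gene's ratios by over 1.5 times, and in both the overexpression and wild-type arrays overlapped.

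LOC4349141 read 10.05 and 8.84 in RNAi, 7.17 and 7.75 in overexpression, and 6.67 and 7.35 in wild type, 5.42-fold above wild type and 3.96-fold above overexpression. RNAi replicate 1 was the higher one, in contrast to LOC4333923, LOC4333712 and LOC4336283. Without RNAi replicate 1 the ratios were 3.57 and 2.61, and without replicate 2 they were 8.23 and 6.01. LOC9268304, at 11.001 and 10.09 in RNAi, 8.12 and 8.69 in overexpression, and 8.04 and 8.52 in wild type, was 4.81-fold above wild type. LOC4329374, at 9.25 and 9.32 in RNAi, 7.37 and 7.16 in overexpression, and 7.35 and 6.84 in wild type, was 4.57-fold above wild type.

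The 3 member genes with the highest RNAi means lay above 13 on both RNAi arrays. LOC4346580 read 13.52 and 13.52 in RNAi, 11.96 and 12.22 in overexpression, and 11.72 and 12.16 in wild type, 2.98-fold above wild type. LOC4328603 read 13.24 and 13.81 in RNAi, 11.49 and 11.57 in overexpression, and 12.12 and 11.37 in wild type, 3.43-fold above wild type. LOC4334163 read 13.11 and 13.41 in RNAi, 11.24 and 11.78 in overexpression, and 11.65 and 10.997 in wild type, 3.82-fold above wild type. In all 3 genes the overexpression and wild-type arrays lay within 1 of each other. Among the other member genes, LOC9268613, LOC4337509 and LOC4341302, stood 3.59, 3.11 and 2.92-fold above wild type and 3.23, 2.63 and 3.84-fold above overexpression. The 3 genes with the smallest gaps stood 2.30 to 2.76-fold above wild type.

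LOC4343986 and LOC4343987 were the only members directly next to each other in the gene order. LOC4343986 read 11.20 and 11.07 in RNAi, 9.65 and 9.70 in overexpression, and 9.999 and 9.66 in wild type, 2.47-fold above wild type. LOC4343987 read 10.99 and 11.25 in RNAi, 9.27 and 9.86 in overexpression, and 9.15 and 9.35 in wild type, 3.66-fold above wild type. In both genes the RNAi arrays lay above the 4 others, while overexpression was below wild type in LOC4343986 and above it in LOC4343987. The gene after them, LOC4343988, differed from wild type by 0.08 (limma, adjusted p = 0.934).

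The nearest measured non-member genes on both sides of the member genes numbered 42, of which 22 lay directly beside a member. Their median difference between RNAi and wild type was 0.05, with a range of -3.68 to 2.09, and 24 were above 0. Of the 42, 0 passed as higher in RNAi than in wild type in limma, beside 0.19% of all kept probe sets, and 1 as lower, LOC4344231, beside 0.583% of all. At an unadjusted p under 0.05 there were 3 higher and 7 lower. Against overexpression 0 passed as higher and 4 as lower in limma, beside 0.954% and 3.31% of all, with 5 higher and 11 lower at an unadjusted p under 0.05. None had a gap of 1 or more, which 0.717% of all non-control probe sets had, and 6 had both RNAi arrays above the 4 others, as 11.3% of all did.

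**Figure D4:**
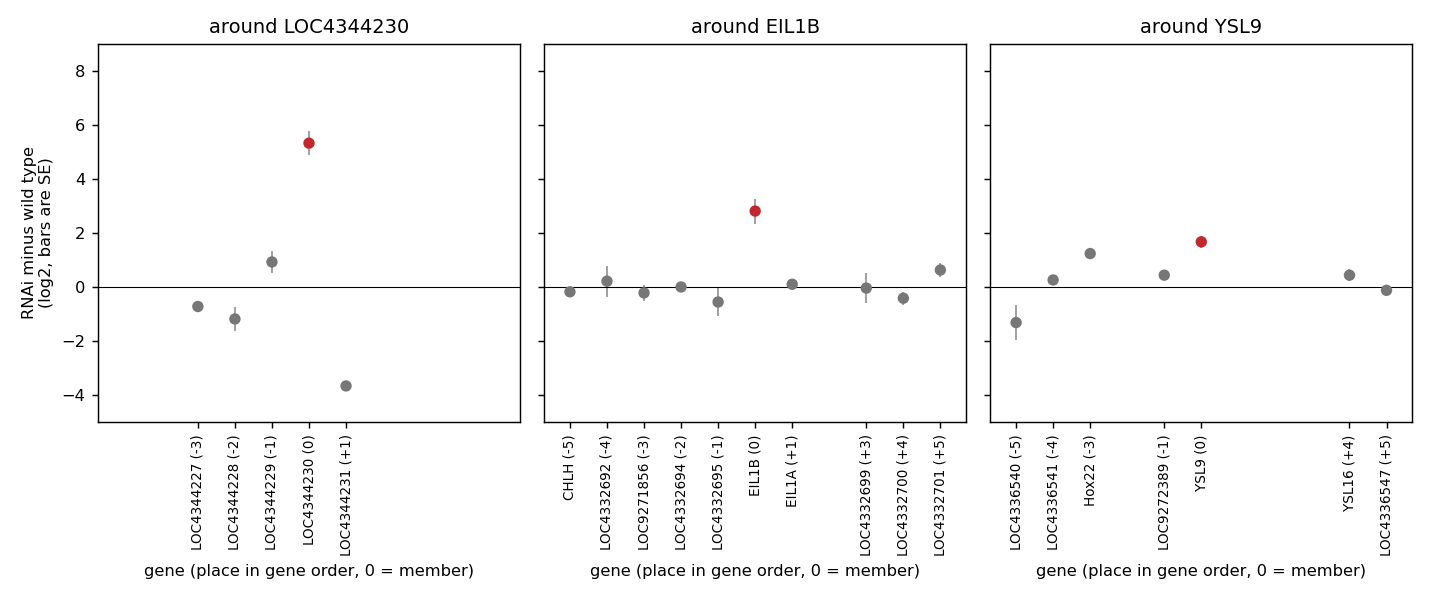
Difference of RNAi minus wild type (log2, y axis, bars are SE from limma) for measured genes by place in the gene order (x axis) around LOC4344230, EIL1B and YSL9 (red; other genes grey). LOC4344231 lies at -3.68 beside LOC4344230 at 5.32, drawn from the gene's second probe set, and the genes on the 2 sides of EIL1B lie at -0.56 (LOC4332695) and 0.09 (EIL1A).

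The same genes were read by 6 further probe sets that were no members, each of a different gene. In 5 of them both RNAi arrays lay above the 4 others, and in 2, those of LOC4344230 and LOC4333923, by 1 or more. Over all non-control probe sets these shares were 11.3% and 0.717%. The identifiers of those of LOC4344230 and LOC4333923 differ from the members' only in the suffix, so they are not independent measures. Those of LOC4339146 and LOC9268613 share the stem of the member, so they cannot be taken as independent measures either. One of the 5, that of LOC4341302, lay under the floor on all 6 arrays and was not fitted, at 2.33 and 3.59 in RNAi, 1.98 and 1.84 in overexpression, and 1.81 and 0.56 in wild type. The exception belonged to LOC4330464, whose further probe set lay under the floor in RNAi and overexpression, at 3.04 and 3.30 in RNAi, 1.55 and 1.66 in overexpression, and 4.71 and 5.46 in wild type. The further probe set of LOC9268613 separated the groups least, at 8.73 and 9.004 in RNAi, 7.79 and 8.11 in overexpression, and 7.76 and 8.66 in wild type.

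At the limits of the rule, the smallest gap inside was 1.01 and the largest outside 0.99, which belonged to a further probe set of the member gene LOC4339146. The difference of overexpression and wild-type means was 0.49 just inside and 0.51 just outside, and the RNAi mean 8.005 and 7.90. With the other limits met, 184 probe sets had a gap of 0.5 to 1. A further 27 probe sets failed only the limit on overexpression and wild type, and 161 only the limit on the RNAi mean. The names JAZ and PP2C removed 5 probe sets: those of JAZ10 (2), JAZ11 and JAZ12, repressors of jasmonate signalling, and PP2C68, a protein phosphatase. They stood above wild type by 1.72 to 2.65 on the log2 scale and above overexpression by 1.48 to 2.47. JAZ10 and JAZ11 lie next to each other, and the member LOC4331849 lies 17 genes away from JAZ10.

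Turned to the other groups and directions, the same limits found 102 probe sets low only in RNAi, 103 high and 4 low only in overexpression, and 2 high and 10 low only in wild type. The 47 members were therefore fewer than the probe sets low only in RNAi or high only in overexpression, and more than those found in the 3 other classes. These counts share the 6 arrays and were not tested.

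**Figure D5:**
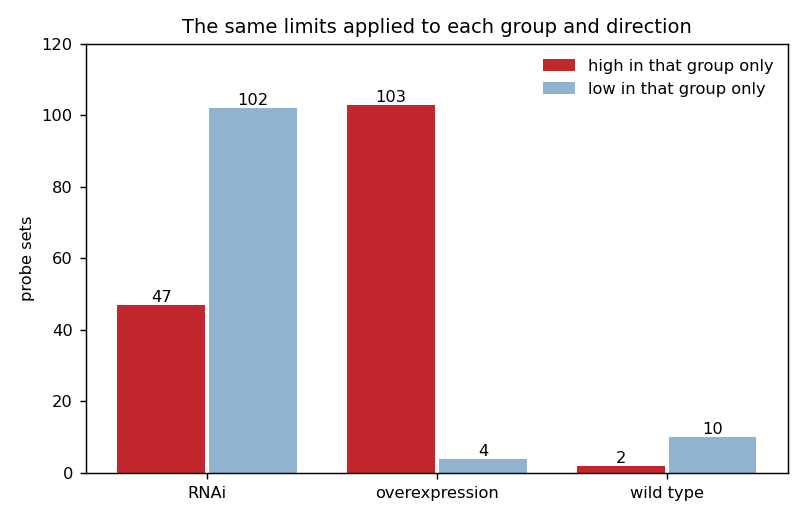
Number of probe sets (y axis) that met the same limits for each group, high (red) or low (light blue) in that group only. The 47 members are the first bar, beside 102 low in RNAi only and 103 high in overexpression only.

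Across 27 lists of named genes from hormone, stress, transport and metabolic pathways, 482 genes were measured. The 480 that are not members were counted. In RNAi against wild type limma called 3 of these higher, Hox22, CIPK29 and PDIL1-1, and 0 lower, with 45 higher and 44 lower at an unadjusted p under 0.05. Over all kept probe sets 0.19% were called higher and 0.583% lower. CIPK29, a protein kinase gene of the calcium sensor pathway, read 9.94 and 10.22 in RNAi, 9.40 and 9.27 in overexpression, and 8.72 and 8.84 in wild type, so overexpression lay between the others. PDIL1-1, a protein disulfide isomerase gene of the endoplasmic reticulum, read 12.04 and 12.19 in RNAi, 12.10 and 12.14 in overexpression, and 10.26 and 11.02 in wild type, and was as high in overexpression as in RNAi. Neither met the rule for members. Their adjusted p against wild type was 0.0439 and 0.0493 in limma, with ranges of 0.0431 to 0.281 and 0.0434 to 0.325 over 14 other settings. Without wild-type replicate 1 or 2, limma called 0 of the 482 genes higher. Against overexpression 14 of the 480 were higher and 12 lower, beside 0.954% and 3.31% of all kept probe sets. The list medians of RNAi minus wild type ran between -0.43 (amino acid metabolism) and 0.74 (late embryogenesis abundant proteins and dehydrins), and in neither of these lists did a gene pass against wild type.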

How the data were processed

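The authors deposited log2 expression values for 57381 probe sets on 6 Affymetrix rice arrays. RMA is named, with no version, in the submitters' processing notes. The table holds 329 to 614 exact zeros per array, and how probe values were summarised is not given in the sources used here. Per the labels, biotin-labelled cRNA was made from 6 µg of Trizol-extracted total RNA. Values were used as deposited.

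Control probe sets (123 hybridisation and 64 reporter) were left out. Of the other 57194, 22436 map to 1 gene, 95 to several and 34663 to none listed. Names and gene order came from a rice RefSeq table (ASM3414082v1), which held all 17905 gene identifiers. Genes were ordered by their start coordinates on each chromosome. Sequences were not used here.

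Probe sets with log2 5 or more on at least 2 arrays (40466) were fitted in limma 3.58.1 (R 4.3.3). The fit used group means, an intensity trend and two-sided moderated tests, with Benjamini-Hochberg adjustment at 0.05. It was also run on simulated data whose spread followed brightness, so that run cannot judge the choice of the trend. A fold against a group mean under log2 5 was counted from 5. The number of arrays limits the precision.

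The members, the lists and the choice of the fit with a trend were made with earlier results of these data known, among them that the fit without a trend called 5 probe sets or fewer. The genes named were members with a gene name, the 20 gene-mapped members with the largest gap, adjacent members, up to 4 called genes per list and the 2 members without a gene that had the largest gaps. Genes at the limits of the rule, flanking genes and other list genes with values were chosen after their values were seen. The labels do not say whether arrays with the same replicate number shared a batch. Correlations of replicate differences between groups were -0.01, -0.03 and 0.04, which cannot show that no batch was shared. Alternatives were other filters, no trend, quantile normalisation, median centring, a replicate block, array weights, only the 4 arrays compared, other limits for members, and leaving out each array.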

Additional observations from a re-analysis of the deposited data

Results flagged for a closer look

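The 64 reporter probe sets of the array were left out of the gene comparisons. They were searched only for an RNAi mean of at least 8 with both RNAi arrays at least 1 above wild type. A reporter bright in overexpression alone would not have been found. The following probe sets met these limits. RPTR-Os-A00196-1_s_at averaged 13.43 in RNAi (13.22 and 13.64), against 3.59 and 5.09 in overexpression and 5.15 and 3.50 in wild type. RPTR-Os-K01193-1_at averaged 13.16 in RNAi (13.40 and 12.91) and read 13.96 and 14.41 in overexpression, against 3.12 and 2.97 in wild type. The first was thus bright in RNAi alone, and the second in both transgenic groups. Their part in the members' differences was not tested.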

How the results depend on the processing

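With 2 arrays a group, the members depend on single arrays. Quantile normalisation and median centring found 55 and 54 probe sets, 46 of the 47 among them in each case. A gap of 1.5 left 11, with medians of 2.74 over wild type and 2.77 over overexpression. Leaving out 1 array gave 46 to 194 probe sets, the most without RNAi replicate 1 and 140 without RNAi replicate 2. Of the 47, 35 were found without overexpression replicate 1 and 35 without replicate 2, 39 without wild-type replicate 1 and 33 without replicate 2. Over the probe sets found with 1 array left out, the medians lay between 1.72 and 1.80 over wild type and between 1.71 and 1.93 over overexpression. Over the 47 members they were 1.87 and 1.96. The rule asked for the same gap each time, so these medians were set in part by it. Over all kept probe sets limma called 313 in RNAi against wild type, 1725 in RNAi against overexpression and 144 in overexpression against wild type. Without an intensity trend it called 1, 5 and 0 (3720, 5957 and 3301 at an unadjusted p under 0.05), and with only the 4 arrays compared 112, 1071 and 203. Leaving out 1 array gave 8 to 714, 274 to 1815 and 0 to 218, and the lowest counts came without wild-type replicate 2, without overexpression replicate 1 and without overexpression replicate 1. The replicate block, although the labels do not say that the numbers pair the arrays, gave 393, 1595 and 109. Members called higher than wild type numbered 23, but 0 without either wild-type array and 3 without RNAi replicate 2; against overexpression they numbered 38, but 7 without overexpression replicate 1 and 16 without RNAi replicate 2. The cause was not tested. The table has no detection calls, so signal over background was not used here.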
